A study of Homo sapiens with 9 samples.

Results

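The matrix metallopeptidase (MMP), ADAM, ADAMTS and TIMP genes were examined in A375 cells exposed to the BRD7 and BRD9 bromodomain inhibitor TP-472. Members were all symbols of the deposited table that consist of the stem MMP, ADAM, ADAMTS or TIMP followed by a number, with the copies MMP23A and MMP23B included, which gave 69 of 26475 symbols. Of these, 24 were MMP genes, 22 ADAM genes, 19 ADAMTS genes and 4 TIMP genes. A375 is an established human melanoma cell line that carries mutant BRAF, and it was grown in 1 medium with serum in every group. Exposure lasted 24 h in all groups, which were DMSO alone as control, TP-472 at 5 µM and TP-472 at 10 µM, each with 3 biological replicates.

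MMPs are zinc-dependent proteases that cut collagens, gelatin and other components of the extracellular matrix, most of them secreted as inactive precursors and some anchored in the cell membrane. ADAM proteins are membrane proteins, of which some cut growth factors, receptors and adhesion molecules off the cell surface, and ADAMTS proteins are their secreted relatives, which cut proteoglycans, procollagens and von Willebrand factor. TIMPs bind the active site of these proteases and inhibit them, and in melanoma the balance of both is studied for its part in invasion. The RNA levels given here do not measure protein, activation of a precursor or proteolytic activity.

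The 9 libraries held 42483082 to 51298121 counts. The lineage factors SOX10 and MITF lay at 404 to 426 and at 29.9 to 33.3 CPM in DMSO (counts scaled by the sequencing depth of each library), while the pigment genes TYR and DCT were listed at 0 in all 3 DMSO libraries. The 9 melanocyte markers, mostly SOX10, summed to between 449 and 468 CPM in the control, between 448 and 462 at 5 µM and between 399.8 and 449 at 10 µM. At that dose S100A1, with opposite-strand exons over 49.3% of its own, fell by 1.56 on the log2 scale (adjusted p = 0.013). The 4 markers of dedifferentiated melanoma (AXL, NGFR, EGFR and SOX9) summed to between 677 and 692 CPM in the control, between 516 and 523 at 5 µM and between 467 and 562 at 10 µM. Of these, NGFR (opposite-strand exons over 17.7% of its own) fell by 1.04 at 5 µM and 0.81 at 10 µM on the log2 scale, and SOX9 was 1.78-fold and 2.30-fold lower. AXL, which gave most of the sum (515 to 529 CPM in DMSO and 391 to 463 at 10 µM), was not called at either dose. Neither was EGFR, with 12.4, 36.2 and 37.3 CPM in the 10 µM libraries. Markers of cells that commonly supply MMPs and TIMPs were also summed. The 5 fibroblast markers summed to between 28.1 and 30.0 CPM in the control, between 17.9 and 20.5 at 5 µM and between 9.94 and 14.6 at 10 µM, and the 5 immune markers to 53.4 to 58.9, 83.7 to 84.9 and 87.4 to 131 CPM. The immune sum was nearly all CD68, whose exons share 95.3% of their length with another gene on the same strand, and CD3E and MS4A1 were listed at 0 in DMSO. The fibroblast sum was mostly PDGFRB, with a control mean of 22.8 CPM. PDGFRB was called lower at both doses (log2 fold change -0.88, then -1.40). PDGFRA, with same-strand exons over 19.5% of its own, was called only at the higher dose (-1.76). LUM and DCN were not called. At the lower dose all their libraries lay above the control (0.62 for LUM, 0.23 for DCN). At the higher dose they overlapped with it (-0.09 and 0.03). The 4 keratinocyte markers summed to 6.15 to 10.5 CPM and the 3 endothelial markers to 1.84 to 3.70 CPM over all libraries. All libraries came from the A375 line, so these sums are levels in A375 cells and do not count cells of other types. The part of these markers in the results was not tested. In such bulk RNA a shift among the A375 cells and a change within each cell cannot be told apart. Replicate 1 of the 10 µM group stood apart. A chi-square of counts between 2 libraries, averaged over genes, was 198 and 318 between it and the other two, 46.6 between those and at most 58.0 within DMSO or 5 µM. For named members where it lay far from the others, the value without it is also given.

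Of the 69 members, 8 were listed at 0 in every library and 12 had counts too low to be tested, with at most 24 counts in any library. The remaining 49 were tested with the rest of the table (16402 genes) by the quasi-likelihood test of edgeR, with p-values adjusted after Benjamini and Hochberg. A gene was called where its adjusted p was under 0.05 and its level differed 1.5-fold or more. The members with the highest levels per kilobase of transcript in DMSO were TIMP3 with 259 ± 1.81 CPM per kb, MMP2 with 199 ± 5.13, TIMP1 with 142 ± 1.43, TIMP2 with 77.0 ± 1.43 and MMP14 with 65.2 ± 0.249 (SD, n = 3). ADAM15 (55.9 CPM per kb), ADAM19 (52.1) and ADAM9 (50.9) followed close to each other.

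At 5 µM, 2 of the 49 members were called higher and 3 lower than in DMSO. Over all genes tested, 2.15% were called higher and 2.73% lower, against 4.08% and 6.12% of the members. The genes that rose were MMP1 and MMP10, and those that fell were MMP2, MMP9 and ADAMTS10. At 10 µM, 6 members rose (MMP1, MMP3, MMP10, ADAMTS6, ADAMTS13 and TIMP1) and 9 fell (MMP2, MMP9, MMP11, MMP14, ADAM9, ADAM19, ADAMTS10, TIMP2 and TIMP3). This was 12.2% and 18.4% of the members, beside 8.58% called higher and 10.5% called lower over all genes. Without replicate 1 of the 10 µM group, 4 members were called higher and 9 lower. Over all 16746 genes of that fit, which also tested ADAMTS18, 1368 were called higher and 1839 lower. ADAMTS13, TIMP1 and TIMP3 lost their calls in that fit, and ADAM11 was called lower. The median log2 fold change over the tested members was -0.09 at 5 µM and -0.23 at 10 µM, and over all genes it was 0.01 at both doses. Both doses were compared with the same 3 DMSO libraries, so the lists are not independent of each other. In the direct comparison of 10 µM with 5 µM, 2 members were called higher (MMP1 and MMP3) and 4 lower (MMP2, MMP11, MMP14 and ADAM19), beside 1.42% and 2.59% of all genes, and the median of the members was -0.30.

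**Figure D1:**
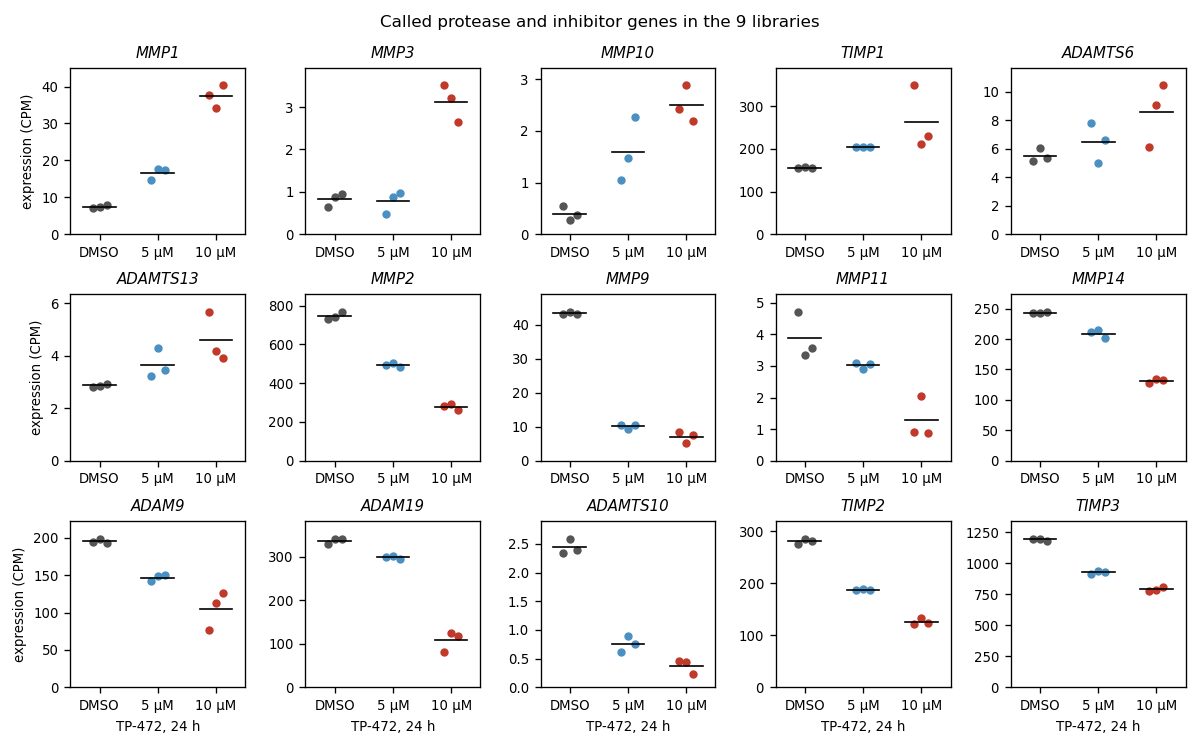
Expression in CPM (depth-scaled counts, linear axes from 0) of the 15 called members in each of the 9 libraries, by group; points are libraries and lines are group means. MMP1 was at 6.94 to 8.01 CPM in DMSO and at 34.2 to 40.3 CPM at 10 µM, while MMP2 was at 729 to 767 and 262 to 290 CPM.

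**Figure D2:**
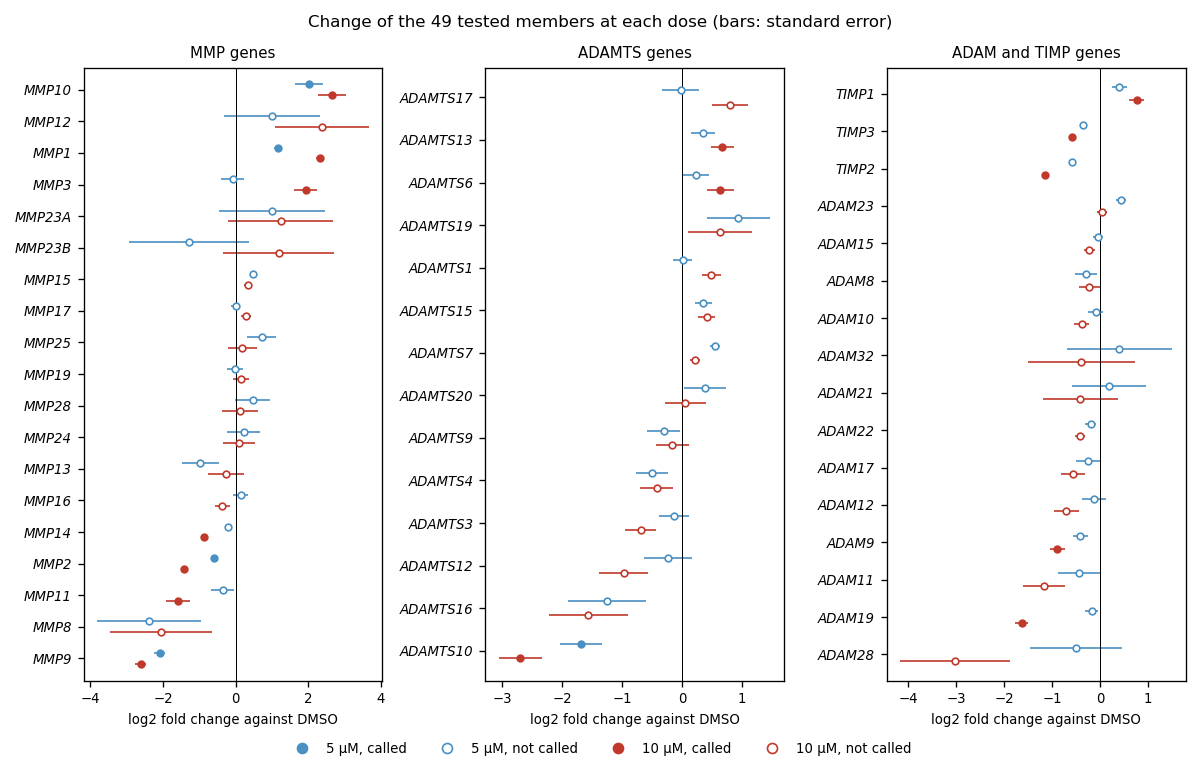
Log2 fold change against DMSO at 5 µM and 10 µM for the 49 tested members by family, with standard errors as bars and filled points for called genes. At 10 µM 6 members were called higher and 9 lower, and at 5 µM 2 and 3.

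Among the interstitial collagenases, which cut fibrillar collagen, MMP1 rose at both doses. MMP1 had 6.94, 7.43 and 8.01 CPM in the 3 DMSO libraries, 14.8, 17.7 and 17.3 CPM at 5 µM and 37.7, 34.2 and 40.3 CPM at 10 µM. The 3 groups did not overlap and followed the order of dose. The log2 fold change was 1.15 ± 0.11 (SE) at 5 µM (adjusted p = 0.000211) and 2.33 ± 0.11 at 10 µM (adjusted p = 6.28e-07), while 10 µM was 2.25-fold higher than 5 µM (adjusted p = 0.000219). MMP13 and MMP8, the other collagenases, were low and not called at either dose. MMP13 had 1.09, 1.67 and 1.49 CPM in DMSO, 0.942, 0.697 and 0.513 CPM at 5 µM and 1.84, 1.23 and 0.428 CPM at 10 µM. Its 5 µM libraries were all below DMSO (log2 fold change -0.98 ± 0.50, adjusted p = 0.278), while the 10 µM libraries overlapped with DMSO (-0.28 ± 0.50, and -0.77 without replicate 1). MMP8 had 0.362, 0.658 and 0.473 CPM in DMSO, 0.0438, 0.232 and 0 CPM at 5 µM and 0.346 CPM in 1 library at 10 µM with the others at 0. All its treated libraries were below all DMSO libraries, with log2 fold changes of -2.38 ± 1.43 at 5 µM (adjusted p = 0.36) and -2.07 ± 1.40 at 10 µM (adjusted p = 0.291). In the fit of only DMSO and 5 µM both were called lower (adjusted p = 0.0296 for MMP8 and 0.0412 for MMP13), and MMP8 was called lower at 10 µM without replicate 2 of that group (adjusted p = 0.0274).

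The stromelysins MMP3 and MMP10, which cut proteoglycans and other matrix proteins and can activate other MMPs, rose to low levels. MMP10 had 0.543, 0.268 and 0.378 CPM in DMSO, 1.05, 1.47 and 2.28 CPM at 5 µM and 2.42, 2.88 and 2.20 CPM at 10 µM. Every treated library was above every DMSO library, and the doses overlapped. The log2 fold change was 2.01 ± 0.39 (adjusted p = 0.0099) and 2.65 ± 0.39 (adjusted p = 0.00067), with no call between the doses (0.64, adjusted p = 0.298). The call at 5 µM was lost without replicate 2 or 3 of DMSO, at adjusted p = 0.0549 and 0.0529.

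MMP3 moved at the higher dose. Its level was 0.644, 0.885 and 0.946 CPM in DMSO, 0.482, 0.871 and 0.965 CPM at 5 µM and 3.51, 3.21 and 2.65 CPM at 10 µM. The 5 µM libraries lay within or just outside the range of DMSO, and the 10 µM libraries lay above both. The difference from DMSO was 1.92 ± 0.33 on the log2 scale at 10 µM (adjusted p = 0.00157) and -0.09 ± 0.33 at 5 µM (adjusted p = 0.915), and the doses differed by 2.01 (adjusted p = 0.00562). MMP11, called stromelysin by name although it acts weakly on matrix, went the other way. MMP11 had 4.71, 3.35 and 3.57 CPM in DMSO, 3.09, 2.90 and 3.06 CPM at 5 µM and 0.909, 2.04 and 0.876 CPM at 10 µM. It fell by 1.60 on the log2 scale at 10 µM (SE 0.33, adjusted p = 0.00435). Between 5 µM and 10 µM the value was -1.24 (adjusted p = 0.0458), which lost its call in 9 of 15 alternative settings.

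MMP1, MMP3 and MMP10 are neighbours on chromosome 11, in a cluster of 9 MMP genes that runs from MMP7 at position 102520508 to MMP13 ending at 102955732 (GRCh38). Counts allowed a test for 6 of the 9. Of the 6, 2 rose at 5 µM and 3 at 10 µM, beside 2.15% and 8.58% of all genes, and MMP1 and MMP3 were called higher at 10 µM than at 5 µM. None was called lower in the fit of all 3 groups, while MMP8 had the lowest log2 fold change of the 6 at both doses and was called lower in the settings given above. The median of the 6 was 0.45 at 5 µM and 2.12 at 10 µM. The 6 include MMP12, with counts of 10, 1 and 1 in DMSO and 46, 13 and 6 at 10 µM, so mainly treated libraries brought it into the test. Without replicate 1 of the 10 µM group the median at 10 µM lay between MMP12 (1.14) and MMP3 (1.83). MMP12, the macrophage elastase gene next to MMP3, lay at 0.0206 to 0.201 CPM in DMSO and 0.122 to 0.951 CPM at 10 µM, and its log2 fold change of 2.37 ± 1.29 was not called (adjusted p = 0.188) and was 1.14 without replicate 1 of the 10 µM group. MMP7, the matrilysin gene at 1 end of the cluster, was at 0 in 7 of the 9 libraries and at 0.116 and 0.103 CPM in the others. Per kilobase, MMP1 had the highest level of the 9 in every library.

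**Figure D3:**
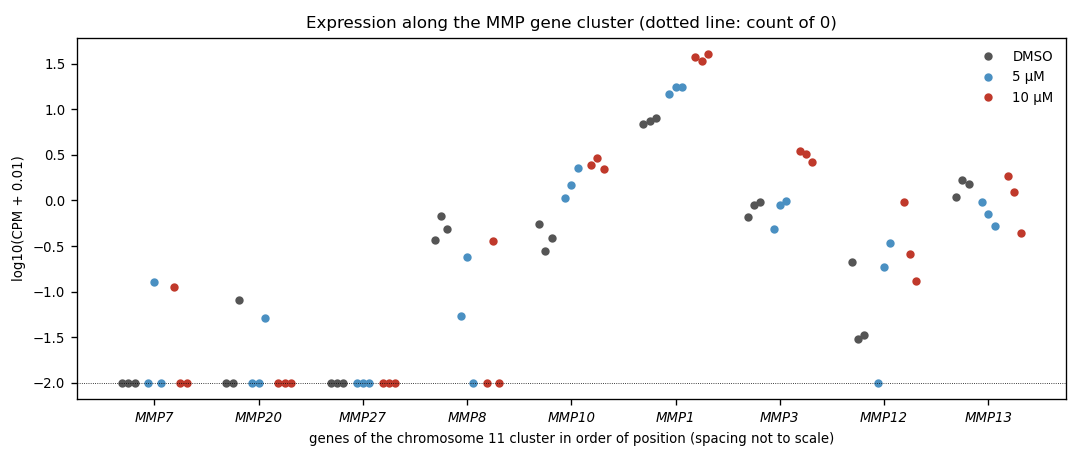
Expression of the 9 genes of the chromosome 11 cluster in order of position, as log10(CPM + 0.01) with 1 point per library; the dotted line marks a count of 0. The 10 µM libraries of MMP10, MMP1 and MMP3 lay above all DMSO libraries of the same gene, with MMP1 between 34.2 and 40.3 CPM.

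The sequence just upstream of a start site was compared for members with an entry in the RefSeq promoter table, because several MMP genes are textbook targets of the transcription factor AP-1. The table held 40 entries for 39 members, and among the called genes it covered MMP10, MMP11, MMP14, ADAM19, ADAMTS6, ADAMTS10, ADAMTS13, TIMP1 and TIMP3. It had no entry for MMP1 or MMP3. The 5 entries of the chromosome 11 cluster were MMP7, MMP8, MMP10, MMP20 and MMP27, of which only MMP8 and MMP10 had counts enough to be tested. The 250 bases before the start were searched on both strands for the AP-1 site TGANTCA and the TATA box TATAAA, which do not overlap each other in these entries. The AP-1 letters were present in 6.57% of all 35116 promoters, in 3 of the 5 entries of the cluster (MMP7, MMP10 and MMP20) and in 1 of the 35 other member entries (ADAMTS12). TATAAA was present in 10.7% of all promoters, in 4 of the 5 cluster entries and in 3 of the 35 others. A match is a description of letters and not evidence of binding.

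Shown are 2 cluster genes with both matches, of which MMP10 rose and MMP7 stayed near 0, and 3 called genes elsewhere without a match, in lower case from 5′ to 3′ on the gene's strand with the AP-1 and TATA letters in capitals (RefSeq, GRCh38.p14). In MMP10 the AP-1 letters span positions -67 to -61 and TATAAA -31 to -26 before the start, and in MMP7 they span -67 to -61 and -30 to -25.
MMP10 (chr11:102780629-102780878, minus strand): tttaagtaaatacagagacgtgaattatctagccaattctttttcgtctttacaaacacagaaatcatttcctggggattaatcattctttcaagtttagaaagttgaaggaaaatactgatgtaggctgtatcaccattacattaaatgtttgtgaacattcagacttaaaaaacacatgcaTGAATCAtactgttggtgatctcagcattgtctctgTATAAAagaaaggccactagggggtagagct
MMP7 (chr11:102530748-102530997, minus strand): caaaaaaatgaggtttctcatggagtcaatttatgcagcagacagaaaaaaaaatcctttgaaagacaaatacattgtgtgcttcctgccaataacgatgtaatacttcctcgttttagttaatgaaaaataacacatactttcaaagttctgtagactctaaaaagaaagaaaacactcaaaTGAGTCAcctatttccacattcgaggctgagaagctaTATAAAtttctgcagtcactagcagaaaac
TIMP1 (chrX:47582186-47582435, plus strand): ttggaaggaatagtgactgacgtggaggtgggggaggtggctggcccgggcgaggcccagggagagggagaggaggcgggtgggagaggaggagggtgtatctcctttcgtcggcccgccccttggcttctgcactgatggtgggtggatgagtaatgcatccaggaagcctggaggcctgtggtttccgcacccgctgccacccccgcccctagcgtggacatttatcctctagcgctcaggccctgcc
MMP14 (chr14:22836335-22836584, plus strand): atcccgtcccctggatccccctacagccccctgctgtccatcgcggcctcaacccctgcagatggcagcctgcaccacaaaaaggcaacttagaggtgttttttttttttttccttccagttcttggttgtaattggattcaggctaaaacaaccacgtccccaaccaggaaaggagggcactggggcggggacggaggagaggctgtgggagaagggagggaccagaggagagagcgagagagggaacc
ADAM19 (chr5:157575776-157576025, minus strand): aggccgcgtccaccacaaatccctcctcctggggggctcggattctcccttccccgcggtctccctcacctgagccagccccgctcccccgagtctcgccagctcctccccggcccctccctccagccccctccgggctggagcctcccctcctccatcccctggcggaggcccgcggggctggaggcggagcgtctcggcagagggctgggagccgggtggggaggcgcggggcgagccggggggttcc
The GC content of these windows was 34.4% for MMP10 and 33.6% for MMP7, beside 64.8% for TIMP1, 56.8% for MMP14 and 76.4% for ADAM19, and the median over all promoters was 58%. MMP7 carries the same pair of motifs as MMP10 at nearly the same positions and had at most 0.116 CPM.

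The gelatinases MMP2 and MMP9, which cut denatured collagen and basement membrane collagen, both fell at both doses. MMP2 had 729, 742 and 767 CPM in DMSO, 491, 505 and 484 CPM at 5 µM and 284, 290 and 262 CPM at 10 µM. The groups were well apart, and the order followed the dose. The log2 fold change of MMP2 was -0.60 ± 0.06 at 5 µM (adjusted p = 0.000474) and -1.42 ± 0.07 at 10 µM (adjusted p = 5.34e-07), and the doses differed by -0.83 (adjusted p = 0.000107). The 5 µM value lies near the fold limit and passed under it, at -0.58, without replicate 3 of DMSO or of 5 µM.

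MMP9 was far below DMSO at both doses. Its level was 43.1, 43.7 and 43.0 CPM in DMSO, 10.6, 9.33 and 10.4 CPM at 5 µM and 8.51, 5.21 and 7.48 CPM at 10 µM. The fold change was 4.28-fold lower at 5 µM (log2 -2.10 ± 0.15, adjusted p = 4.68e-05) and 6.13-fold lower at 10 µM (log2 -2.62 ± 0.16, adjusted p = 2.32e-06). The difference between doses, -0.52, was not called (adjusted p = 0.0708), and it was -0.68 (adjusted p = 0.000862) without replicate 1 of the 10 µM group. Exons of MMP9 share 18.4% of their length with an antisense gene, SLC12A5-AS1, and no source used here says if counting was by strand.

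Of the 6 membrane-type MMP genes, all tested, MMP14 was the only called member at either dose. This was a call lower at 10 µM, beside 10.5% of all genes. MMP14 encodes MT1-MMP, which activates the MMP2 precursor at the cell surface in a complex with TIMP2. It had 243, 243 and 244 CPM in DMSO, 211, 215 and 201 CPM at 5 µM and 127, 135 and 133 CPM at 10 µM. All treated libraries were below all DMSO libraries. The log2 fold change was -0.22 ± 0.06 at 5 µM (adjusted p = 0.0532, not called) and -0.89 ± 0.06 at 10 µM (adjusted p = 6.23e-06), and the doses differed by -0.67 (adjusted p = 0.000274). MMP15, another membrane-type gene, had an adjusted p of 0.0164 at 5 µM and 0.0336 at 10 µM with log2 fold changes of 0.49 and 0.33, under the fold limit. MMP19, the highest per kilobase among the remaining MMP genes (3.67 CPM per kb in DMSO), had a log2 fold change of 0.14 ± 0.23 at 10 µM (adjusted p = 0.673).

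The sum over all MMP genes per kilobase was lower at each higher dose, and its make-up differed between the groups. It was 308 ± 5.65 CPM per kb in DMSO, 224 ± 3.39 at 5 µM and 154 ± 3.61 at 10 µM (SD, n = 3). MMP2 gave 64.7% ± 0.479 of it in DMSO, 59.0% ± 0.417 at 5 µM and 48.2% ± 1.44 at 10 µM, and MMP1 gave 1.23% ± 0.0661, 3.77% ± 0.352 and 12.3% ± 1.29. The share of MMP9 was 6.02% ± 0.138, 1.94% ± 0.154 and 1.96% ± 0.486, so the treated groups overlapped. The 3 libraries of each group did not overlap with those of the other groups for the sum, MMP2 and MMP1, and an exact two-sided permutation of 3 against 3 libraries cannot give a p under 0.1.

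**Figure D4:**
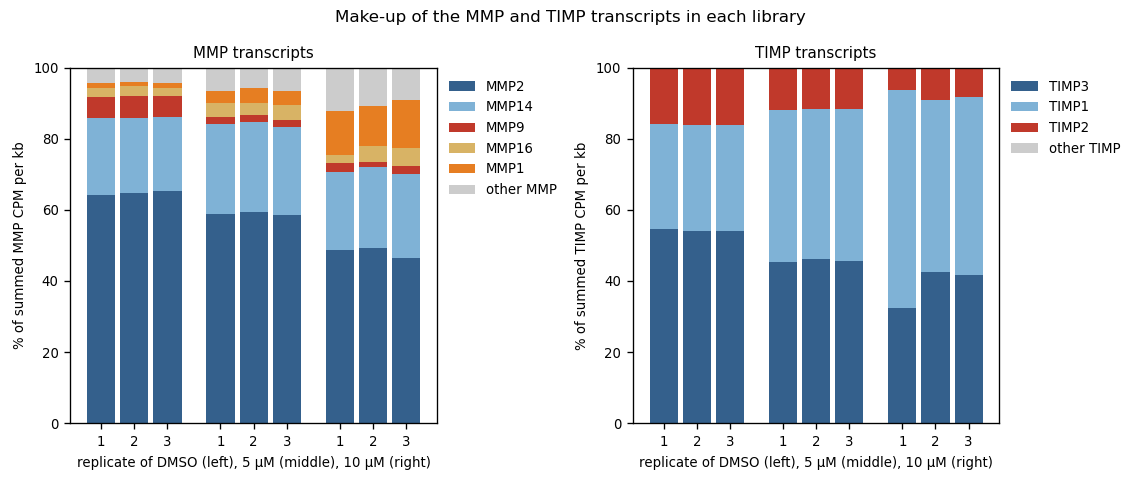
Share in percent of each gene in the summed MMP (left) and TIMP (right) CPM per kb, as stacked bars per library in the order DMSO, 5 µM, 10 µM. MMP2 gave 64.7% of the MMP sum in DMSO and 48.2% at 10 µM, and TIMP1 gave 29.7% and 53.2% of the TIMP sum, with 61.2% in replicate 1 of the 10 µM group and 48.3% and 50.1% in the others.

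All 4 TIMP genes are given. TIMP1, a secreted inhibitor of most MMPs, had 155, 157 and 155 CPM in DMSO, 204, 204 and 206 CPM at 5 µM and 349, 213 and 230 CPM at 10 µM. All treated libraries were above all DMSO libraries, and replicate 1 of the 10 µM group stood far above the other two. The log2 fold change was 0.39 ± 0.16 at 5 µM (adjusted p = 0.148) and 0.76 ± 0.16 at 10 µM (adjusted p = 0.00425). Without that library the value at 10 µM was 0.51 (adjusted p = 4.78e-08), which is under the fold limit. Over the 15 alternative settings the adjusted p of TIMP1 at 5 µM ranged from 1.22e-07 to 0.329.

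TIMP2 and TIMP3 fell at 10 µM. TIMP2, which inhibits MMPs and also takes part in activating MMP2, had 276, 286 and 281 CPM in DMSO, 187, 189 and 188 CPM at 5 µM and 122, 133 and 125 CPM at 10 µM. The groups did not overlap. It fell by 1.15 on the log2 scale at 10 µM (SE 0.06, adjusted p = 1.45e-06), and at 5 µM it was -0.58 ± 0.06 (adjusted p = 0.000475), a fold of 1.496 that misses the limit of 1.5. TIMP3, an inhibitor held in the matrix that also acts on ADAM17 and ADAMTS proteases, had 1198, 1196 and 1183 CPM in DMSO, 910, 939 and 926 CPM at 5 µM and 778, 788 and 808 CPM at 10 µM. These groups did not overlap either. TIMP3 fell by 0.59 at 10 µM (SE 0.05, adjusted p = 3.72e-05), just past the fold limit, and was -0.58 (adjusted p = 1.35e-10) without replicate 1 of the 10 µM group. At 5 µM it was -0.37 ± 0.05 (adjusted p = 0.00264, under the fold limit). TIMP4 was at 0 in 6 of the 9 libraries and reached 0.224 CPM at most.

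The summed TIMP level was 478 ± 3.40 CPM per kb in DMSO, 439 ± 3.61 at 5 µM and 448 ± 64.4 at 10 µM (SD, n = 3), where replicate 1 had 521 and the others 402 and 420. The 10 µM libraries thus lay on both sides of the other groups. TIMP1 gave 29.7% ± 0.107 of the sum in DMSO, 42.5% ± 0.307 at 5 µM and 53.2% ± 6.97 at 10 µM, and TIMP3 gave 54.2% ± 0.341, 45.8% ± 0.351 and 39.0% ± 5.65. TIMP2 gave 16.1% ± 0.238, 11.7% ± 0.0619 and 7.86% ± 1.35. The summed MMP level was 64.4% ± 1.46 of the summed TIMP level in DMSO, 50.9% ± 0.758 at 5 µM and 34.9% ± 4.76 at 10 µM, and the groups did not overlap. In the human genome TIMP1 and TIMP3 lie within introns of the synapsin genes SYN1 and SYN3, and TIMP4 lies within SYN2, with opposite-strand exons of SYN2 covering 10.3% of its exons. Those hosts stayed at or under 1.58 CPM in all libraries, and SYN3 fell by 1.19 at 10 µM (adjusted p = 0.0384) while SYN1 and SYN2 were not called.

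Of 22 ADAM genes 13 could be tested, none was called at 5 µM and 2 (15.4%) fell at 10 µM, beside 10.5% of all genes, both with a protease domain that is active in the protein. ADAM19, which sheds neuregulin and other growth factors, had 331, 340 and 342 CPM in DMSO, 299, 301 and 296 CPM at 5 µM and 81.7, 126 and 119 CPM at 10 µM. The 10 µM libraries lay far below all others. Its log2 fold change was -0.18 ± 0.13 at 5 µM (adjusted p = 0.489) and -1.63 ± 0.14 at 10 µM (adjusted p = 1.88e-05), and 10 µM lay 2.75-fold below 5 µM (adjusted p = 0.000276). Without replicate 1 of the 10 µM group the fall was 1.47 on the log2 scale. ADAM9, another surface sheddase, had 194, 199 and 193 CPM in DMSO, 142, 148 and 150 CPM at 5 µM and 77.0, 113 and 126 CPM at 10 µM. All groups were apart from each other. Its log2 fold change was -0.89 ± 0.15 at 10 µM (adjusted p = 0.00134), and -0.71 without replicate 1, while at 5 µM it was -0.41 ± 0.15 (adjusted p = 0.111). Over the 15 alternative settings the adjusted p at 5 µM ranged from 2.2e-07 to 0.282 for ADAM9 and from 0.000164 to 0.693 for ADAM19. For both genes the lowest value came from the fit of only DMSO and 5 µM.

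The other tested ADAM genes had no call at either dose in the fit of all libraries. ADAM11 had 2.58, 2.70 and 3.14 CPM in DMSO and 2.36, 0.711 and 0.672 CPM at 10 µM. Without replicate 1 of the 10 µM group ADAM11 was called lower, at -2.02 (adjusted p = 4.3e-05). ADAM15, the highest of the family per kilobase in DMSO, had a log2 fold change of -0.23 ± 0.11 at 10 µM (adjusted p = 0.129), and -0.38 without replicate 1 of that group. ADAM10 and ADAM17, the main sheddases of Notch and of TNF and EGFR ligands, were at -0.39 ± 0.15 (adjusted p = 0.0768) and -0.57 ± 0.25 (adjusted p = 0.106). For ADAM17 replicate 1 of the 10 µM group had 27.4 CPM against 58.5 and 66.3 CPM in the others. Without it ADAM10 was -0.20 and ADAM17 -0.27, both under the fold limit, and without replicate 3 ADAM17 was called at -0.81 (adjusted p = 0.0357). Exons of IAH1 on the opposite strand cover 30% of those of ADAM17. ADAM23, a brain-enriched member without an active protease site that binds LGI proteins, was 0.44 ± 0.10 at 5 µM (adjusted p = 0.0281, under the fold limit) and 0.04 ± 0.11 at 10 µM. The median of the 13 was -0.18 at 5 µM and -0.42 at 10 µM, and the summed ADAM level was 195 ± 1.28, 172 ± 0.122 and 119 ± 9.25 CPM per kb in DMSO, at 5 µM and at 10 µM.

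The ADAMTS genes were low, with a sum of 20.8 ± 0.822 CPM per kb in DMSO, 21.0 ± 1.51 at 5 µM and 17.9 ± 3.69 at 10 µM. In the 10 µM group replicate 1 had a sum of 13.6 and the others 19.5 and 20.4, beside 20.2 to 21.8 in DMSO. Of the 19 genes, 14 could be tested. ADAMTS10, which binds fibrillin and takes part in microfibril assembly, had 2.33, 2.59 and 2.39 CPM in DMSO, 0.613, 0.891 and 0.760 CPM at 5 µM and 0.455, 0.442 and 0.224 CPM at 10 µM. The groups did not overlap. The log2 fold change was -1.69 ± 0.34 at 5 µM (adjusted p = 0.0128) and -2.70 ± 0.36 at 10 µM (adjusted p = 0.000378). The 5 µM call was lost when any 1 of the DMSO libraries, or replicate 1 or 3 of 5 µM, was left out, at adjusted p = 0.0543 to 0.0728.

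ADAMTS13, the protease of von Willebrand factor, and ADAMTS6, a relative of ADAMTS10, rose at 10 µM by small steps. ADAMTS13 had 2.82, 2.86 and 2.93 CPM in DMSO, 3.22, 4.30 and 3.47 CPM at 5 µM and 5.66, 4.17 and 3.91 CPM at 10 µM, and the log2 fold change at 10 µM was 0.67 ± 0.20 (adjusted p = 0.0243). Without replicate 1 of the 10 µM group it was 0.49 (adjusted p = 0.0544), and leaving out any DMSO library also ended the call. ADAMTS6 had 5.13, 6.03 and 5.32 CPM in DMSO, 7.82, 4.98 and 6.63 CPM at 5 µM and 6.16, 9.05 and 10.5 CPM at 10 µM, with 0.64 ± 0.22 at 10 µM (adjusted p = 0.0473). That call was lost in 10 of 15 settings, at adjusted p up to 0.143. Without replicate 1 of the 10 µM group, the lowest of its group, ADAMTS6 stayed called at 0.82 (adjusted p = 0.000918). In both genes the 10 µM libraries lay above the DMSO libraries and overlapped with the 5 µM libraries.

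The leading genes of the other ADAMTS groups were not called. ADAMTS12, the highest ADAMTS gene in DMSO with 8.40 CPM per kb, had 70.7, 77.0 and 73.3 CPM in DMSO and 11.7, 47.9 and 52.9 CPM at 10 µM, where replicate 1 stood far below the others (log2 fold change -0.97 ± 0.41, adjusted p = 0.0925). Without it ADAMTS12 was -0.55 (adjusted p = 1.15e-05), under the fold limit. ADAMTS1, a protease of the proteoglycans versican and aggrecan, was 0.49 ± 0.16 (adjusted p = 0.0342) at 10 µM, under the fold limit. ADAMTS3, a procollagen processing enzyme, was -0.69 ± 0.25 (adjusted p = 0.0586), and -0.44 without replicate 1 of the 10 µM group.

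Other genes that activate, inhibit or carry these proteases were taken as a list of 39, of which 35 were tested. At 5 µM 3 rose and 2 fell, at 10 µM 5 rose and 10 fell, and between the doses 2 were higher and 2 lower at 10 µM, beside the shares of all genes given above. Without replicate 1 of the 10 µM group, a setting chosen after seeing the data, 5 rose and 9 fell at 10 µM. The numbers over all genes in that fit are given above, and ADAMTSL1 lost its call. Their median log2 fold change was -0.12 at the lower and -0.15 at the higher dose.

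In the plasminogen system, which activates several MMP precursors, 2 of the 6 tested genes rose and 2 fell at 10 µM, beside 8.58% and 10.5% of all genes. SERPINB2, which encodes the activator inhibitor PAI-2, had from 3.59 to 3.95 CPM in DMSO, 6.75, 7.13 and 6.30 CPM at 5 µM and 14.3, 19.2 and 21.6 CPM at 10 µM. The groups did not overlap. SERPINB2 rose by 2.28 ± 0.16 at 10 µM (adjusted p = 5.92e-06), and the activator gene PLAT by 0.73 at 5 µM and 0.62 at 10 µM. Exons of SERPINB10 on the same strand cover 25.2% of those of SERPINB2. PLAU (urokinase) and SERPINE2, a further inhibitor gene, had called values of -0.87 and -0.80 at 10 µM, and the urokinase receptor gene PLAUR was not called. Without replicate 1 of the 10 µM group PLAU was -1.24, and PLAUR was -0.44 (adjusted p = 4.95e-05), under the fold limit. For PLAUR that library had 80.5 CPM against 51.4 and 56.8 CPM in the others. Exons of C10orf55 on the opposite strand cover 28.7% of those of PLAU.

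Among other inhibitors and binders, the Kunitz inhibitor gene TFPI2 rose at both doses. TFPI2 had 36.7 ± 0.795 CPM in DMSO, 66.5 ± 0.0456 at 5 µM and 104 ± 3.95 at 10 µM (SD, n = 3), and was 2.83-fold higher at 10 µM (adjusted p = 4.68e-07). LCN2 (lipocalin 2), whose protein binds MMP9, had log2 fold changes of -1.70 at 5 µM (adjusted p = 0.0185) and -2.47 at 10 µM (adjusted p = 0.000983), where it was -3.22 without replicate 1. At 10 µM the membrane inhibitor RECK fell by 0.89 (adjusted p = 0.0317) and the endocytic receptor LRP1, which clears MMP and TIMP complexes, fell too (adjusted p = 0.00911). Replicate 1 of the 10 µM group was the lowest of its group for both, with 4.11 CPM against 7.54 and 11.2 CPM for RECK and 115 CPM against 241 and 261 CPM for LRP1, and without it both stayed called at -0.59 and -0.72. BSG (CD147, an inducer of MMP expression) and FURIN, the convertase of several MMP and ADAM precursors, were not called, at 0.03 ± 0.13 and -0.18 ± 0.07 at 10 µM. For BSG replicate 1 of that group had 523 CPM against 387 and 348 CPM in the others. Without it BSG was -0.17 (adjusted p = 0.00613), under the fold limit.

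The ADAMTS-like genes encode matrix proteins that resemble ADAMTS without the protease domain. At 10 µM 4 of the 6 tested fell, beside 10.5% of all genes, and none rose. ADAMTSL4 had 49.7, 50.9 and 55.2 CPM in DMSO, 34.2, 31.6 and 29.8 CPM at 5 µM and from 12.8 to 17.8 CPM at 10 µM. The groups did not overlap. Its log2 fold change was -0.71 at 5 µM (adjusted p = 0.00587) and -1.71 at 10 µM (adjusted p = 8.1e-06), with genes on the opposite strand covering 20.4% of its exons. THSD4 fell by 1.52 at 10 µM (SE 0.15, adjusted p = 5.98e-05), and ADAMTSL3 and ADAMTSL1 had called values of -0.91 and -0.68, of which ADAMTSL1 was -0.52 without replicate 1 of the 10 µM group, under the fold limit. Of the 6 tetraspanin genes that escort ADAM10, 2 rose and 1 fell at 10 µM, beside 8.58% and 10.5% of all genes. TSPAN10 and TSPAN33 rose by 0.97 and 0.74 and TSPAN14 fell by 0.90 on the log2 scale. Without replicate 1 TSPAN10 was 0.62 and stayed called. The 3 partner genes of ADAM17 (RHBDF1, RHBDF2 and FRMD8) were not called.

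**Figure D5:**
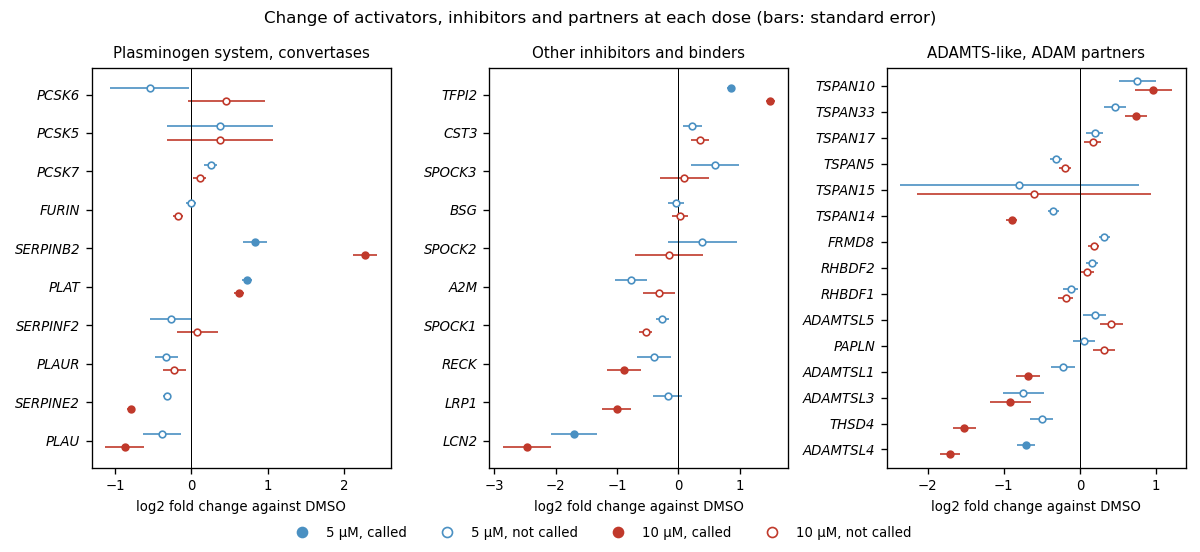
Log2 fold change against DMSO at 5 µM and 10 µM for the 35 tested activators, inhibitors, binders, ADAMTS-like genes and ADAM partners, with standard errors as bars and filled points for called genes. At 10 µM 5 rose, with SERPINB2 at 2.28 the highest, and 10 fell, with LCN2 at -2.47 the lowest.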

How the data were processed

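Poly(A)-selected RNA of A375 cells was sequenced in 9 libraries, 3 per group (the series' design text speaks of ribosomal depletion instead). The authors deposited 1 table of RSEM expected counts per gene symbol, unscaled, and the submitters' processing notes name Bowtie2 2.1.0, RSEM 1.2.15 and build hg38. Libraries were strand-specific, and if counting was by strand is unknown from these sources. Genes whose expected counts were not whole in all 9 libraries, as reads were shared with other genes, were ADAMTS7, MMP19 and MMP25, and MMP23A and MMP23B are near-identical copies.

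Expected counts were rounded to whole numbers and tested with edgeR 4.0.16 in R 4.3.3: TMM factors (0.957 to 1.03), filterByExpr, 1 fit of the 3 groups, quasi-likelihood F test, Benjamini-Hochberg adjustment over 16402 genes, with calls at an adjusted p under 0.05 and a fold of 1.5 or more. The standard error of a log2 fold change is its size over the root of the F statistic. CPM (counts scaled by sequencing depth) use TMM-scaled library sizes, and CPM per kb the longest GENCODE release 29 basic transcript. The p-values measure the spread between biological replicates, pooled over the 3 groups of the fit. A p-value for the lower dose against DMSO thus also carries the spread of the higher-dose libraries, including replicate 1 that stood apart. Pairs of libraries within a group differed by more than sampling noise. The procedure was checked on simulated counts.

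Named genes were every member called in any comparison, all TIMP genes, the member of each subgroup with the highest DMSO level per kilobase, and members whose call at either dose was lost in an alternative. MMP8, MMP12, MMP13, MMP15, ADAM10, ADAM11 and ADAM17 were added after their values were seen. Members, subgroups and lists came from general knowledge, with earlier results of these data known. One gene of the plasminogen list is not reported here and is left out of that list's counts. ADAM genes were sorted by active protease site from general knowledge because no protein table was used. Alternatives were other size factors, 2 other filters, DESeq2 1.42.0, fits of only the groups compared, a replicate block, no fold limit, and each library left out.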

Additional observations from a re-analysis of the deposited data

How the results depend on the processing

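Of 675 values recomputed for the called members, 630 kept their direction and side of the threshold, 37 lost the call, 6 gained one and 2 changed sign. Both changes of sign were MMP3 at 5 µM, which was not called, at 0.02 without replicate 3 of DMSO and 0.16 without replicate 1 of 5 µM, with a range of -0.28 to 0.16 over the libraries left out. The number of members called at 5 µM (5) became 8 in the fit of only the groups compared and 10 with no fold limit, and it ranged from 2 to 7 when 1 library was left out, with 2 without replicate 3 and 3 without replicate 2 of DMSO. At 10 µM (15) it was 20 by DESeq2, which lost TIMP3 and added ADAM11, ADAM12, ADAM28, ADAMTS3, ADAMTS16 and ADAMTS17. It was 19 with no fold limit and 13 to 18 with 1 library left out. Between the doses (6) it was 10 with no fold limit and 5 to 9 with 1 library left out. MMP1, MMP9, MMP14, ADAM9, ADAM19 and TIMP2 kept their calls at 10 µM in all 15 settings, as did MMP2, MMP3, MMP10, MMP11 and ADAMTS10.

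TIMP3 at 10 µM passed under the fold limit with DESeq2-type size factors (-0.58), the filter at 1 CPM (-0.57) and DESeq2 (-0.58). It also did so without replicate 1 of the 10 µM group (-0.58). The numbers of genes called higher and lower over the whole table at 5 µM (352 and 448) became 591 and 729 with only the groups compared, 722 and 956 with no fold limit, 575 and 666 without replicate 1 of 10 µM and as few as 197 and 283 without replicate 2 of DMSO. At 10 µM (1407 and 1730) they became 2686 and 2948 with no fold limit. Between the doses (233 and 425) they became 101 and 165 with only the groups compared, 471 and 910 with no fold limit, 398 and 534 by DESeq2 and 118 and 272 without replicate 1 of 5 µM. The causes of these changes were not tested.

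Replicate numbers carry no stated meaning, and the deviations of same-numbered libraries correlated at -0.0751 to 0.133, and not every library correlated best with its own number, so the numbers were not taken as a pairing. A fit with the replicate block called 5 members at 5 µM, 16 at 10 µM and 5 between the doses, without ADAMTS6 at 10 µM and MMP11 between the doses and with ADAMTS12 (-1.13, adjusted p = 0.049) and ADAMTS3 (-0.76, adjusted p = 0.0209) gained at 10 µM. At 10 µM the standard errors of MMP8, MMP12, MMP23A, MMP23B, ADAM28 and ADAM32, all under 1 CPM in DMSO, were above 1 on the log2 scale.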
